A study of Drosophila melanogaster with 3 samples.

Results

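The genes described here are 10 components of the fly insulin and TOR (target of rapamycin) pathway and of translation control: InR, chico, Akt, foxo, Thor, Sesn, Tor, S6k, Lk6 and larp. They were taken by name, with earlier results of these data known, out of 13968 protein-coding genes. The genes are those on 7 chromosome arms in the Ensembl BDGP6 annotation. Each of the 10 was searched for peak summits inside the gene body or within 1 kb of it. The data are ChIP-seq peak lists for Snoo, the fly relative of the vertebrate Ski and SnoN proteins, which bind Smad proteins and act with them in transcriptional repression. All 3 libraries form 1 group: sonicated chromatin of whole Drosophila melanogaster pupae of both sexes and unknown age, from the snoo-MiMIC line, in which an eGFP exon placed in an intron gives a Snoo-eGFP fusion, precipitated with an antibody against GFP. The labels call replicates 3, 5 and 6 biological, and do not say whether each was a pool of animals.

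An untagged or input library was not analysed here. The authors' caller computed the signals with a control alignment, and the levels could not be checked against it. Whole pupae do not tell which cells carried a signal. The lists give peaks and their signal, a value of the authors' peak caller, and no read counts, so the depth behind each signal is unknown. The IDR list, which the authors cut by a threshold on the irreproducible discovery rate, had 6633 peaks with signals between 128 and 4785 (median 222). By content it equals the 6633 strongest regions of a list pooled over the replicates. Not every peak in it was found in each replicate: 91.9% of the summits had a match within 150 bp in all 3. Each replicate had a candidate list of 30000 regions, which reach down into background. Signals are on a different scale in each list (medians of 19.0, 22.4 and 29.2 in replicates 3, 5 and 6), so replicates were compared by rank, with 1 for the strongest region. There is no second group to test against. Every count below is a description, set beside the same count over all genes or all IDR peaks where that was made.

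In flies, insulin-like peptides bind the receptor InR, the adaptor chico passes the signal on to lipid kinases, and these activate the kinase Akt. Akt keeps the transcription factor foxo out of the nucleus and, through other proteins, raises the activity of the kinase Tor, which senses nutrients and promotes growth. Tor acts on translation through the kinase S6k and the eIF4E-binding protein Thor, while Lk6 phosphorylates the cap-binding factor eIF4E itself and larp is a La-related RNA-binding protein. The pathway sets body and organ size in feeding larvae, and pupae no longer feed.

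Of the 4 strongest summits of the group, those of Lk6, larp and Akt lay in introns, and the gene with the most summits was InR, so the bases around these summits are shown. Windows of 201 bp were centred on the summit and are written on the plus strand of dm6, read from the RefSeq sequence of the same assembly. For Thor, whose summit lay at its start, only the 80 bases upstream of the annotated transcript are shown. Capitals mark matches, on either strand, to the FoxO motif GTAAACA, the GAGA motif GAGAGAG and the stretch GGCCAGAC. The last of these was chosen after the sequences were seen. It contains AGAC, the core of the Smad-binding element. Windows with AGAC alone were not counted, and Smad binding at these stretches was not tested.
Lk6 intron, chr3R:11760957-11761157: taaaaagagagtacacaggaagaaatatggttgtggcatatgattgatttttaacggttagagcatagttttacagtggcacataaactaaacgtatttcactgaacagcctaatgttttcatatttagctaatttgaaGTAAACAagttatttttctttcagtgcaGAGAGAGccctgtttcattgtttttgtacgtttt
larp intron, chr3R:28326489-28326689: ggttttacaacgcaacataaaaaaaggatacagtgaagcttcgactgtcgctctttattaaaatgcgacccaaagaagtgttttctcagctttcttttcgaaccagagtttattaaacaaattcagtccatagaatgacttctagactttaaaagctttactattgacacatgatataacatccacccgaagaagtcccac
Akt intron, chr3R:16099771-16099971: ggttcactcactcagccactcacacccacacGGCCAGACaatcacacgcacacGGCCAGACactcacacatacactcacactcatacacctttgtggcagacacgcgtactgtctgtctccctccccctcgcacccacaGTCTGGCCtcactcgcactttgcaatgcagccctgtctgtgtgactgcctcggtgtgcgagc
InR intron, InR summit 5 (strongest), chr3R:21608483-21608683: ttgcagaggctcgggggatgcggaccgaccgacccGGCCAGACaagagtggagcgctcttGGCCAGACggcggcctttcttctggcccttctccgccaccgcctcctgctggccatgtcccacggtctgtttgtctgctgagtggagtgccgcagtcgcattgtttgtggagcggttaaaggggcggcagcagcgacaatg
InR intron, InR summit 7, chr3R:21605593-21605793: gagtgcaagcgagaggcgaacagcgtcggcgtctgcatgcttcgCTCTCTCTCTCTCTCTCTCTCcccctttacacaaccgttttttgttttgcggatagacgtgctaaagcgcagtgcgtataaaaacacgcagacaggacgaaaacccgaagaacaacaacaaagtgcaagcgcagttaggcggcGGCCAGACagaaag
Thor, upstream part, chr2L:3478354-3478433: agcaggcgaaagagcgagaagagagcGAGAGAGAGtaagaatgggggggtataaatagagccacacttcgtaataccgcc
The Lk6 window held 1 FoxO match, 42 bp from the summit, and 1 GAGA match, 70 bp from it. No match to any of the 12 listed motifs was found in the larp window. The Akt window held 3 copies of GGCCAGAC, the strongest InR window 2, and the window of InR summit 7 had 1 copy and a long GAGA run with 8 overlapping matches. In all, 4 of 31 member windows (12.9%), those of Akt and of InR summits 5, 7 and 9, held GGCCAGAC, against 43 of 6633 IDR windows (0.648%). The stretch was picked because these windows held it, so its share in them is a description only.

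Snoo-eGFP peaks were found at 9 of the 10 genes, and chico was the exception. Over all protein-coding genes, 4396 of 13968 had an IDR summit in the body or within 1 kb (31.5%). As the members were chosen with earlier results of these data known, their shares are descriptions only. The member genes are long, with a median length of 13455 bp against 2164.5 bp over all genes, and longer genes held summits more often. Of the 2 members under 5 kb, Thor had a summit and chico had none, against 24.7% of all genes of that length. All 4 members of 5 to 15 kb (Akt, Tor, S6k and Lk6) had a summit, against 47.1% of all genes, and so did all 4 of 15 kb or more (InR, foxo, Sesn and larp), against 59.1%. Without replicate 5 or without replicate 6, 8 members held a summit shared by the remaining replicates, since Tor had none there, against 24.0% of all genes without replicate 5 and 24.7% without replicate 6.

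A summit within 1 kb of an annotated start of the gene was found at 8 members, all but chico and S6k, against 25.2% of all protein-coding genes. The strongest summit of Lk6, larp, Sesn and Akt stood among the strongest 663 of the IDR list, as was the case at 5.58% of all genes. Neither share was split by gene length or number of starts, and the members have a higher median length. The 9 genes held 31 summits, of which 12 were at InR, 5 at larp, 4 at foxo, 3 each at Sesn and Lk6, and 1 each at Akt, Thor, Tor and S6k. Each gene was set beside the genes of 80% to 125% of its length. As many summits or more were held by 6 of 248 for InR, 44 of 503 for larp and 66 of 336 for foxo. The counts were 84 of 607 for Lk6, 123 of 459 for Sesn and 501 of 2251 for Thor. For Akt, Tor and S6k they were 455 of 1085, 384 of 788 and 339 of 610. Without InR, 19 summits were left. The median signal of the 31 summits was 249, against 222 over the whole list, with 18 of the 31 above the list's median.

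**Figure D1:**
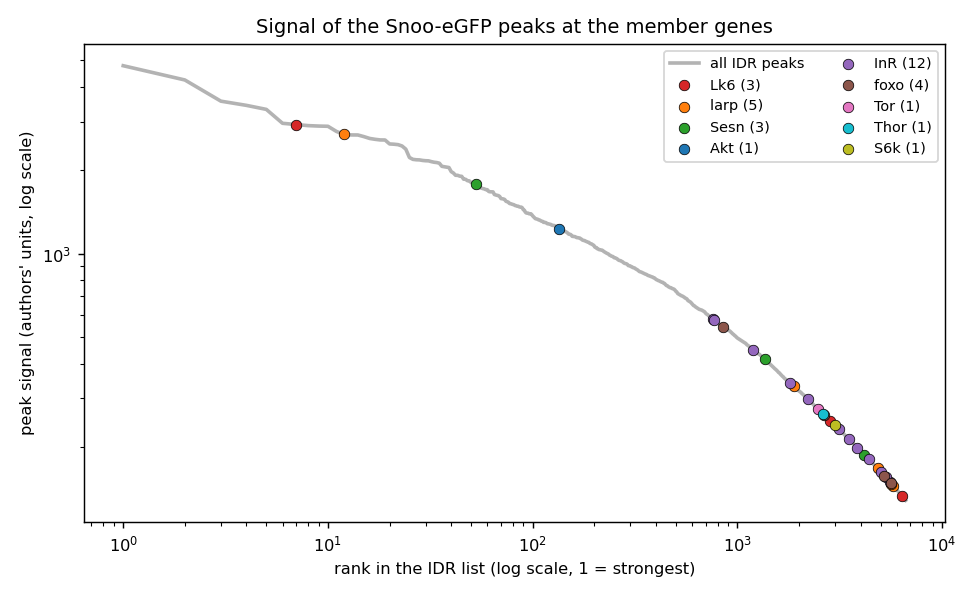
IDR peaks by rank (x axis, log scale) and peak signal (y axis, authors' units, log scale), with the 31 summits at the member genes as coloured points and their number per gene in the legend. Lk6, larp, Sesn and Akt have summits with signals between 1230.5 and 2932 at the strong end, and all other member summits lie at 580.2 or below.

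**Figure D2:**
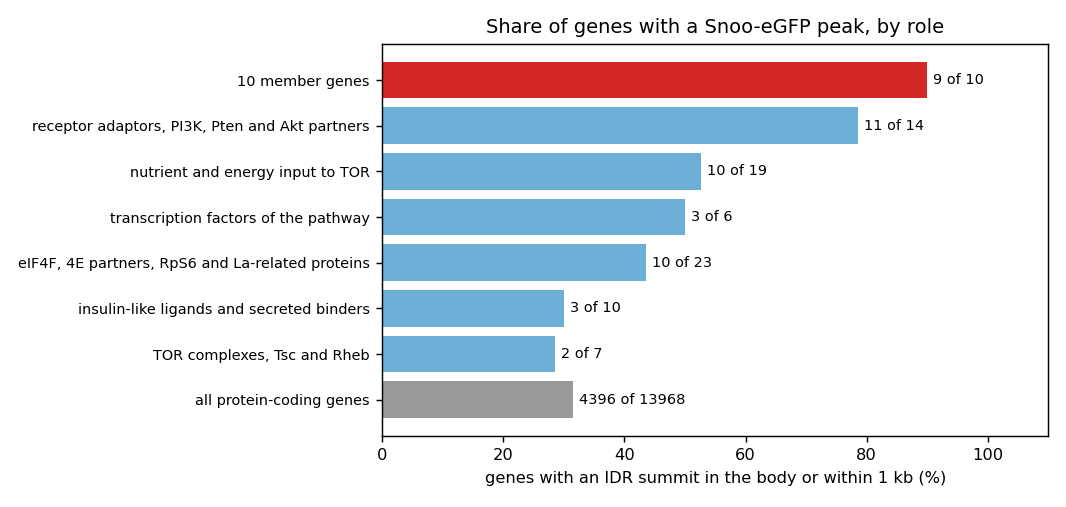
Percentage of genes with an IDR summit in the body or within 1 kb for the member genes, for 6 role groups of other insulin and TOR genes and for all protein-coding genes, with counts beside the bars. The member genes stand at 9 of 10 and all protein-coding genes at 4396 of 13968.

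InR, the only insulin receptor of the fly, lies on the minus strand at chr3R:21570248-21619321, spans 49.1 kb and has 4 annotated starts. Its 12 summits ran from 19 bp upstream of the gene's 5′ end to 29.6 kb into it. All but the first lay in introns, upstream of the coding exons, which begin 38.8 kb from the 5′ end. The last 19.5 kb of the gene, including all coding exons, held no IDR summit. Among 248 genes of 80% to 125% of its length, the median number of summits was 1, and 6 of them reached 12 or more (highest 18).

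The strongest InR summit, number 5 counting from the 5′ end of the gene, had a signal of 580.2 and IDR rank 756, in the interval chr3R:21608289-21608914, 10.7 kb into the gene. It ranked 518, 419 and 2217 in replicates 3, 5 and 6. Summits 7 and 8, with signals of 447 and 576, shared 1 interval of 669 bp at chr3R:21605243-21605911. Summit 8 ranked 153, 433 and 1845 in replicates 3, 5 and 6, and summit 7 ranked 153, 797 and 3544, both being matched to the same region of replicate 3. These intronic summits were thus among the stronger regions of replicates 3 and 5, and further down the list in replicate 6.

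The summit at the InR start, 19 bp upstream of it, had a signal of 298 and ranked 1033, 2542 and 3987 in replicates 3, 5 and 6. Summit 10, 19.6 kb into the gene, had a signal of 339 and ranked 2113, 1280 and 2621. Internal InR starts lie 27.2 and 29.1 kb from the 5′ end, and 2 weaker summits flanked the more downstream of them, 625 bp upstream (signal 180.4) and 443 bp downstream (signal 198). The other 5 InR summits had signals between 149 and 232. Of these, InR summit 2 lay 646 bp from the start of lncRNA:CR44034. InR summit 4 (signal 149) shared the interval of summit 5. It ranked 1924 in replicate 3 and 11514 in replicate 6, and had no match in replicate 5. Over pairs of replicates, which leave out 1 replicate each, InR held 11 shared summits without replicate 3, 6 without replicate 5 and 7 without replicate 6.

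chico, the fly counterpart of the insulin receptor substrate proteins, lies at chr2L:10242512-10247078 on the minus strand and had no IDR summit. Its regions stood low in every candidate list, with a best rank of 17071 in replicate 3, 23885 in replicate 5 and 11679 in replicate 6. In the pooled candidate list its best region had a signal of 47.7 and rank 17470, against a lowest signal of 128 in the IDR list. A weak signal at chico could not be told apart from background in these lists.

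Akt, the kinase below the receptor, lies at chr3R:16099228-16105670 on the plus strand and had 1 summit. It lay in an intron, 643 bp downstream of the gene's 5′ end and upstream of the second start, in the interval chr3R:16099659-16100183. The signal was 1230.5 (IDR rank 135), and the ranks were 49, 121 and 307 in replicates 3, 5 and 6. Replicate signals were 392 in replicate 3, 381 in replicate 5 and 439 in replicate 6, each on the scale of its own list. Akt thus stood near the top of all 3 lists, with no other gene's start within 1 kb of its summit.

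foxo, the transcription factor that Akt restrains, lies at chr3R:14056945-14087978 on the plus strand and had 4 summits. The strongest, with a signal of 543 and IDR rank 854, lay in an intron 4.62 kb from the gene's 5′ end (chr3R:14061393-14061811). Its ranks were 210 in replicate 3, 432 in replicate 5 and 5436 in replicate 6, so replicate 6 placed it far lower than the other replicates did. The summit upstream of the start, at a distance of 234 bp, had a signal of 262 and ranked 3945, 3950 and 2334. It was the strongest foxo region of replicate 6, whereas the intronic one led in replicates 3 and 5. Summit 3, 20.3 kb into the gene, had a signal of 157, and summit 4, with a signal of 147, lay downstream of foxo, 549 bp from the start of Npc2b. Without replicate 3, 5 or 6, foxo held 2, 3 and 2 shared summits in that order.

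Thor, the fly 4E-BP, which blocks eIF4E and is a well-known target of foxo, is the shortest of the genes, at chr2L:3478434-3479612 on the plus strand. Its 1 summit lay in the 5′ UTR, 20 bp downstream of the start, in the interval chr2L:3478349-3478537, with a signal of 263 and IDR rank 2629. It ranked 2498, 1977 and 4204 in replicates 3, 5 and 6, and was thus in the stronger part of each list without being near its top. The window around it held GAGA matches 69 bp away and a FoxO match 78 bp away.

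Sesn, the fly sestrin, is a stress-induced inhibitor of Tor and also a known target of foxo. It lies at chr2R:23713900-23734846 on the plus strand and had 3 summits. The strongest, 226 bp upstream of the start, had a signal of 1792 (IDR rank 53) in an interval of 955 bp, and ranked 34, 63 and 65 in replicates 3, 5 and 6. The annotated start of the gene CG46429 lies at the same distance, so the summit cannot be assigned to one of the 2 genes. A summit 6.89 kb into the gene had a signal of 414 and ranked 348, 2592 and 2512. The start of lncRNA:CR45325 was at 213 bp and that of the protein-coding gene CG18128 at 858 bp. This summit also lay inside the bodies of CG46429 and lncRNA:CR45325. The third, 8.03 kb into the gene, had a signal of 187, ranked 3911, 4398 and 4641, and held a FoxO match 39 bp from the summit. The start of lncRNA:CR45325 was 922 bp from it.

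Tor, which the annotation lists under the symbol mTor, encodes the kinase of both TOR complexes and lies at chr2L:13004480-13013197 on the plus strand. Its 1 summit lay 243 bp upstream of the start, with a signal of 274 and IDR rank 2475. It ranked 5546 in replicate 5 and 1755 in replicate 6, and replicate 3 had no candidate region at the gene at all. The start of Vha68-1, on the opposite strand, was closer to the summit (130 bp) than that of Tor. Without replicate 5 or replicate 6 no shared summit was left at Tor.

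S6k, the ribosomal protein S6 kinase that Tor activates, lies at chr3L:5797549-5810931 on the minus strand. Its 1 summit lay in an intron, 2.75 kb from its only annotated start, with a signal of 240.4 and IDR rank 2980. The ranks were 1166, 5604 and 4310 in replicates 3, 5 and 6. S6k was thus the only gene of the 9 with a summit whose summits all lay more than 1 kb from its own starts.

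Lk6, the eIF4E kinase, lies at chr3R:11750931-11764457 on the minus strand and had 3 summits, among them the strongest of the 10 genes. This one had a signal of 2932 and IDR rank 7, in an intron at chr3R:11760789-11761456. It ranked 13, 7 and 10 in replicates 3, 5 and 6, with replicate signals of 624, 906 and 1406 on the scales of the 3 lists. Its position was 3.4 kb from the gene's 5′ end and 978 bp upstream of an internal start, with no other gene's start within 1 kb. The summit at the 5′-most start itself, 14 bp upstream, had a signal of 249 and ranks of 2057, 1823 and 4186. The third summit, 5.76 kb into the gene, had a signal of 132 and IDR rank 6386, the weakest of the 31, and was not matched in replicate 6.

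larp, which encodes a La-related protein that binds RNA, lies at chr3R:28318162-28336440 on the minus strand, with 6 annotated starts and 5 summits. Its strongest summit had a signal of 2698 and IDR rank 12, and ranked 6, 12 and 25 in replicates 3, 5 and 6. It lay in an intron at chr3R:28326226-28326911, 9.85 kb from the 5′ end and 325 bp upstream of an internal start. At both Lk6 and larp, the strongest summit thus lay within 1 kb upstream of an internal start. With its 6 starts, larp had all 5 summits within 1 kb of one of them. How often the strongest summits of other genes have such a place was not counted. The summit near the 5′-most larp start, 137 bp upstream, had a signal of 167, with the start of asRNA:CR46104 at 312 bp. A summit 733 bp downstream of that start, and 166 bp upstream of the next one, had a signal of 331 and ranked 10677 in replicate 3, 1208 in replicate 5 and 1849 in replicate 6, so replicate 3 stood apart. The other 2 summits, 383 and 881 bp downstream of internal starts, had signals of 144 and 147. Without replicate 3, 5 or 6, larp held 3, 2 and 2 shared summits in that order, and the strongest one stood in the top 25 of each replicate's list.

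**Figure D3:**
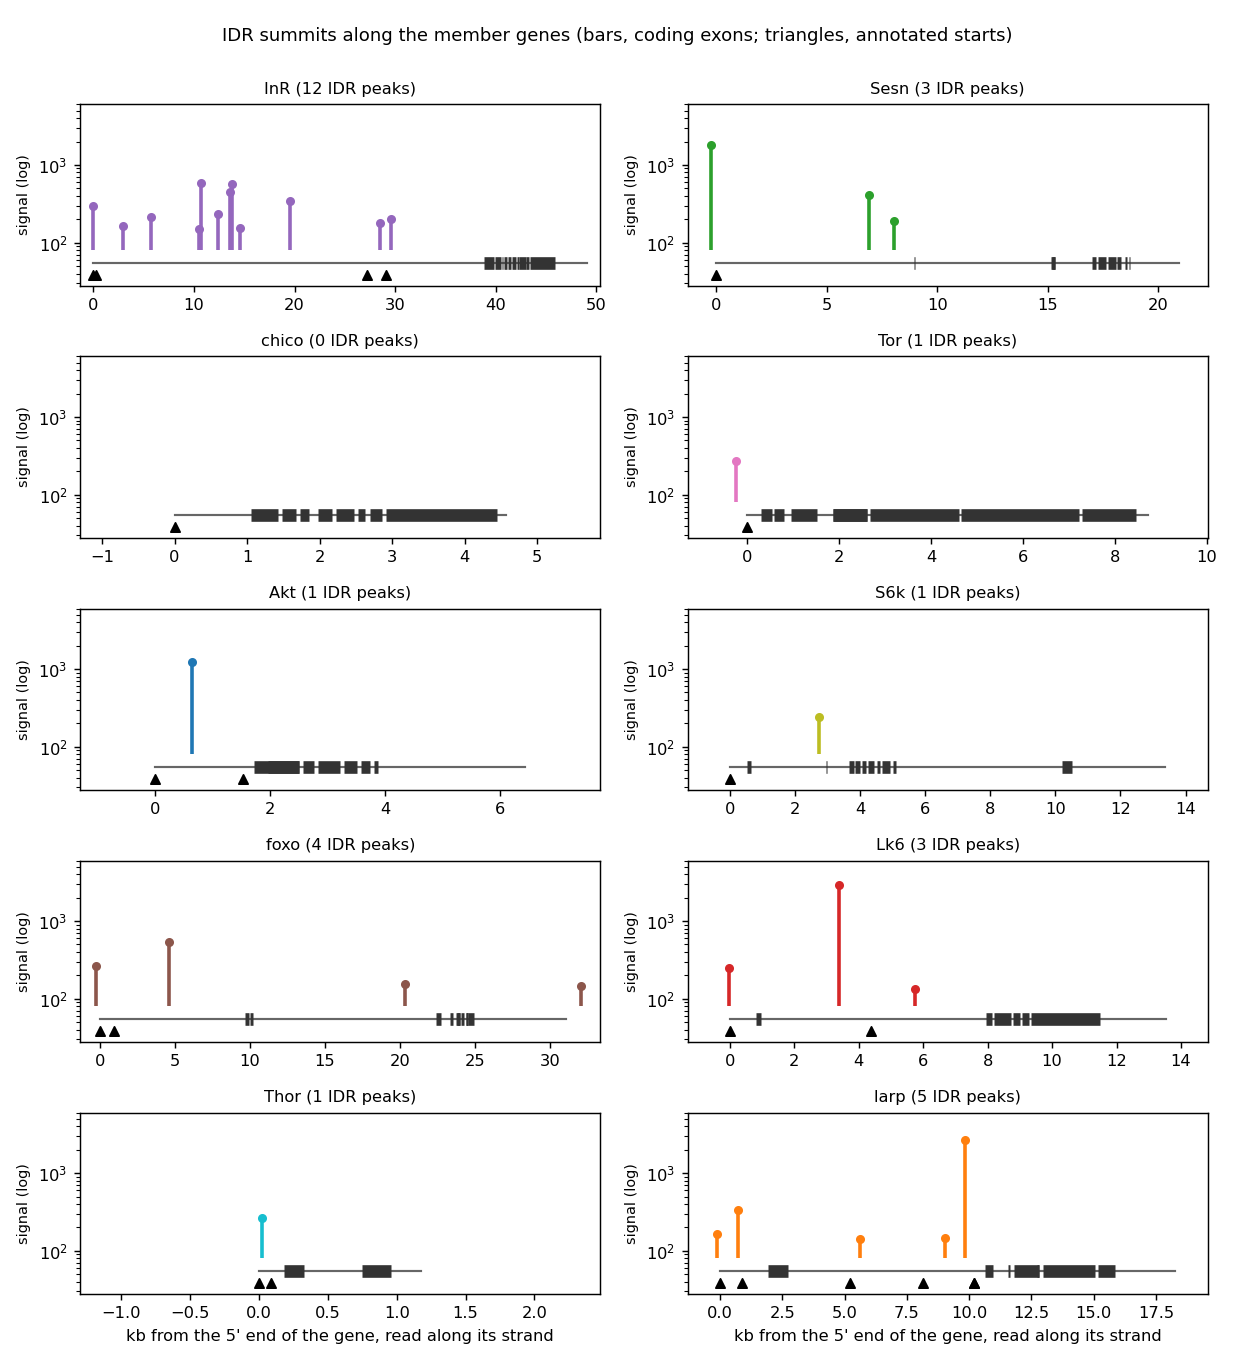
IDR summits along each member gene, with the distance from the gene's 5′ end in kb on the x axis (each panel on its own scale) and the peak signal on the y axis (authors' units, log scale). Dark bars are coding exons and triangles are annotated starts. The strongest Lk6 and larp summits stand upstream of internal starts, and the 12 InR summits stop before the coding exons.

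The strongest summits of Lk6, larp, Sesn and Akt stood within the top 307 regions of every replicate. Of the 31 summits, 28 (90.3%) had a candidate summit within 150 bp in all 3 replicates, against 91.9% of all IDR summits. Among as many top regions of each replicate as the IDR list holds, 18 of the 31 (58.1%) were found in all 3 replicates, 8 in 2 and 5 in 1, against 54.5% in all 3 over the whole list. Ranks were summarized over the summits matched in all 3 replicates. The median of their mean rank was 3187 for the members and 3966 for the whole IDR list. Over these 28 member summits, the median rank was 2305.5 in replicate 3, 2567 in replicate 5 and 3696 in replicate 6 (SD of the 3 medians 739). Replicate 6 thus placed these member summits lower than the other replicates did. Over the IDR summits matched in all 3 replicates, the 3 medians lay between 3282 and 3400. Without replicate 5 or without replicate 6, 19 shared summits were left at the members, and 25 without replicate 3.

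Just inside the list stood Lk6 summit 3, at a signal of 132. Just outside it, the strongest pooled candidate at a member was a region close to that Lk6 summit with a signal of 127.9 (pooled rank 6636), followed by an InR region with a signal of 122 (pooled rank 6983). In all, 92 pooled candidates at the members lay outside the IDR list, and none of them was among the top regions of at least 2 replicates. The IDR list equals the 6633 strongest pooled regions, so these candidates are weaker by construction. The same count over all pooled candidates outside the list was not made.

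**Figure D4:**
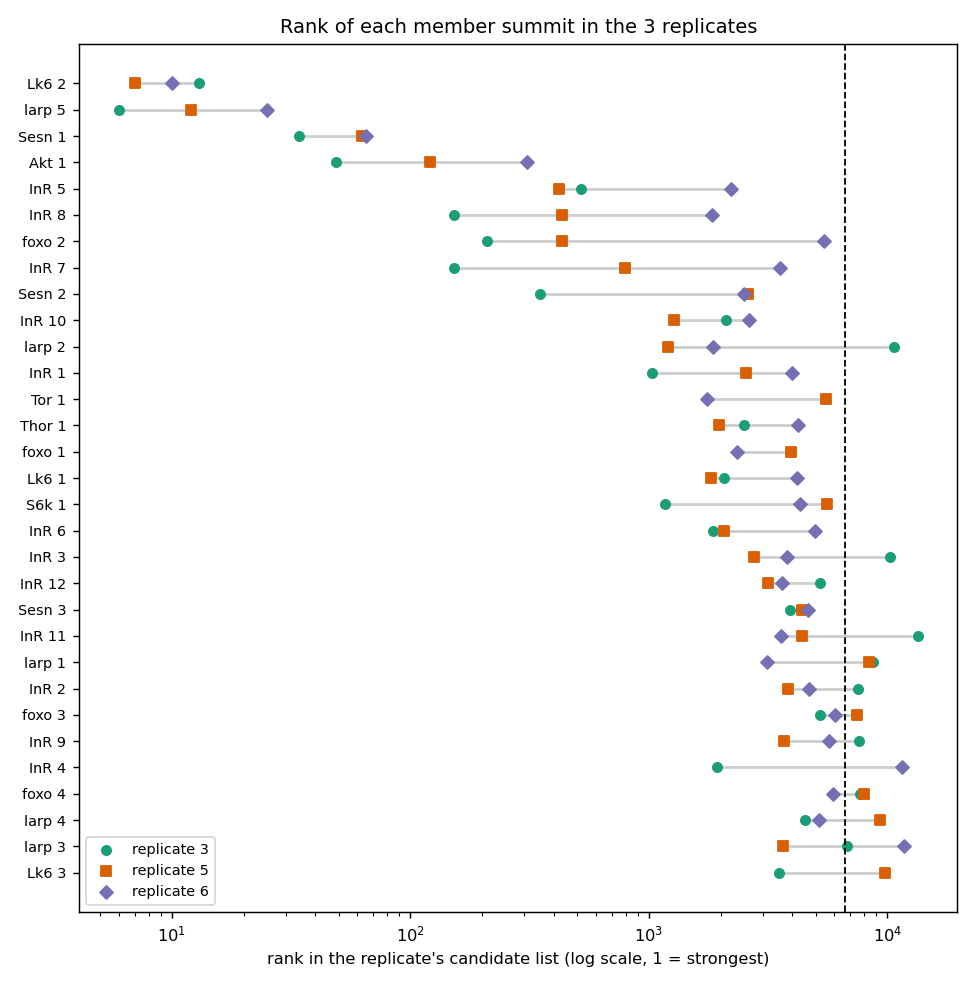
Rank of each of the 31 member summits in the candidate lists of replicates 3, 5 and 6 (x axis, log scale, 1 for the strongest), with summits numbered from the gene's 5′ end and ordered by IDR rank from top to bottom. Grey lines join the replicates, a missing marker means no match within 150 bp, and the dashed line is at rank 6633. The Lk6 and larp summits at the top stay within rank 25, whereas foxo summit 2 spans ranks 210 to 5436.

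Of the 31 member summits, 22 lay in introns, with all but 1 of the 12 InR summits among them. Another 6 lay upstream of a gene, 1 in a 5′ UTR, 1 in a 5′ UTR or intron depending on the transcript, and 1 downstream. Within 1 kb of a start of any gene lay 19 of the 31 (61.3%), against 53.8% of all IDR summits. Within 150 bp of a start lay 5 (16.1%), against 25.8% of the whole list. For 20 of the 31, the nearest start of their own gene was an internal one, meaning any but the 5′-most. This includes InR summits 2 to 7 and foxo summits 2 to 4. Their nearest starts lie only 0.285 kb (InR) and 0.974 kb (foxo) from the 5′ end, and these summits were 2650 bp or more away. More than 5 kb from every start of their own gene were 12 summits, at InR, foxo and Sesn. Places within genes and distances to a gene's own starts were not counted over the whole IDR list. In the windows of 201 bp, the median GC content was 41.3% at the members and 35.8% over all IDR summits. The InR windows had a median of 49.8% (12 summits), and the windows of the other members 37.3% (19 summits).

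Of 12 listed motifs, searched on both strands, at least 1 was found in 12 of the 31 member windows (38.7%), against 33.7% of all IDR windows of the same length. These were 7 of the 12 InR windows and 5 of the 19 windows of the other members. The GAGA motif was found in 7 windows (22.6%), 4 of them at InR and the others at Thor, Lk6 and larp, against 5.85% of all IDR windows. The FoxO motif was found in 3 windows (9.68%), at Thor, at Sesn summit 3 and at the strongest Lk6 summit, against 5.35%. The E-box CACGTG was found in 2 InR windows (6.45%, against 1.90%). The GATA motif GATAAG, the nuclear receptor core site AGGTCA and the CA repeat ACACACAC were each found in 3 windows (9.68%), against 10.1%, 4.03% and 4.03%. All 3 windows with the CA repeat were at InR, as were 2 of the 3 with GATAAG and 2 of the 3 with AGGTCA. No member window held TATCGATA (DRE), GGTCACAC (Motif 1), GTCTAGAC (a Smad palindrome), GGCGCC (a GC-rich Smad site), CAGGTAG (Zelda) or TGACTCA (AP-1), whose shares over all IDR windows were between 0.136% and 2.70%. The windows of InR summits 4 and 5, and those of InR summits 7 and 8, touch at their ends.

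Other genes of the pathway were followed in a list of 79, in 6 roles. Of these, 39 (49.4%) had an IDR summit in the body or within 1 kb, beside 31.5% of all protein-coding genes, and their median length was 4348 bp, beside 2164.5 bp. Among ligands and secreted binders, 3 of 10 had one. They were ImpL2, a secreted protein that binds insulin-like peptides (signal 1007.5), Ilp6, the insulin-like peptide of the fat body (436), and Sdr, a secreted decoy of the receptor (191). No IDR summit was found at Ilp1, Ilp2, Ilp3, Ilp4, Ilp5, Ilp7 or Ilp8.

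The group around the receptor and Akt was the one with the highest share, 11 of 14 genes (78.6%), and its median length was 8289.5 bp. Its strongest genes were sgg, the fly GSK3 kinase (1318), Pi3K21B, a regulatory subunit of the lipid kinase (603), and wdb, a subunit of protein phosphatase 2A (584). The lowest share was that of the TOR complexes with Tsc and Rheb, 2 of 7 (28.6%), where the small GTPase Rheb had a signal of 186 and the TORC1 subunit raptor 139. The median length of that group was 4348 bp, and its share was near that of all protein-coding genes. Both of these summits lay within 1 kb of the start of another gene as well.

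Of the genes that pass nutrient and energy signals to Tor, 10 of 19 (52.6%) had a summit. The strongest were Wdr24, a subunit of the GATOR2 complex (899), and alc and SNF4Agamma, the β and γ subunits of the AMP-activated kinase (807 and 587). The Wdr24 and alc summits also lay within 1 kb of other genes' starts. Of 6 transcription factors of the pathway, 3 had a summit: REPTOR, which Tor restrains (1347), Myc (743) and the REPTOR partner REPTOR-BP (138). Of the translation factors and La-related genes, 10 of 23 (43.5%) had one. The highest signals were at eIF4EHP, a cap-binding repressor of translation (1920), pAbp, the poly(A)-binding protein (683), and eEF2, an elongation factor (436). The eIF4EHP summit also lay within 1 kb of the start of CG18428, and the pAbp summit within 1 kb of that of snoRNA:Psi18S-1347a. Unlike Lk6, whose substrate it is, eIF4E1 had no IDR summit, and neither did the relatives of larp in the list, Larp4B, Larp7 and La.

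The genes whose strongest summits ranked most like that of Lk6 over the 3 replicates were CG18549 and vrs, which share 1 summit (mean absolute rank difference 1.33), and Chro (3.33). For larp they were osa (3.67) and CenG1A and mRpS23 (8 each), the last 2 again with 1 shared summit. Likeness here is the similarity of 3 ranks at the top of the lists.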

How the data were processed

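ChIP-seq peak lists of 3 biological replicates (1 group) on dm6 were used, and the dm3 copies were not used. The peak signal is a value that the authors' caller computed with a control alignment (per the file listings deposited with them), which was not analysed here. The −log10 q-value is the authors' deposited column too, and it only decided between equal signals. For the aligner, the peak caller and the IDR threshold, names and versions were not given in the sources used here. By content, the IDR list equals the 6633 strongest regions of the pooled candidate list.

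Summits were tied to genes of the Ensembl BDGP6 annotation (same assembly as dm6) in the body or within 1 kb, and to replicates by the nearest summit within 150 bp. Tor was taken as mTor. Summits were ranked by signal. Motifs were sought in 100 bp on each side of each summit. Python 3.11.15, pandas 2.3.3 and numpy 2.4.6 were used, and the functions were tested on simulated data. No test was run, as there is 1 group.

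The members, the wider list and the motifs were chosen with earlier results of these data known. Genes named are all 10 members, up to 3 per role of the wider list with the highest signal, and the 3 genes nearest in rank to Lk6 and to larp; genes within 1 kb of a member summit, genes without a summit and the genes in the closing paragraph were named after their values were seen. Alternatives were the reach around genes and starts, the match distance, the list, leaving out a replicate, and the motif window. The strongest summit per group of overlapping intervals, the count without InR and the stretch GGCCAGAC were added after the data were seen.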

Additional observations from a re-analysis of the deposited data

How the results depend on the processing

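Of 59 alternative values for 7 results, 48 stayed within 1.5 times the value given or within its spread. The number of members with a summit was 8 or 9 throughout. Leaving out 1 replicate gave 8 to 9 members with a summit, 7 to 8 with one at a start, 19 to 25 summits at the members (31 in the full list), 33 to 35 wider pathway genes, 29 summits matched in the remaining replicates each time, and median ranks of 3264.5 to 3385. These lists held only 4347 to 4683 regions. Among the 3317 strongest IDR peaks, 18 member summits and 22 wider pathway genes (39 in the full list) were left, and 18 member summits among the top regions of all 3 replicates. The gene body alone held summits at 24 wider pathway genes. Counting only starts within 150 bp left 4 members, against 8 within 1 kb. Only 18 summits, against 28, were matched in all 3 replicates when matches were limited to top regions. Windows of 50 bp on each side held a listed motif at 7 summits and windows of 150 bp at 19, against 12. Leaving out InR left 19 summits. Taking the strongest summit of each group of overlapping intervals, added after the data were seen, gave 29. Narrower reach, shorter windows or shorter lists can only lower such counts by their construction. The unknown read depth limits what can be said of weak regions, such as those at chico. No paired analysis was possible because the samples form 1 group.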

Other observations

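Several genes of the wider list held more than 1 summit. SNF4Agamma, the γ subunit of the AMP-activated kinase, had 9 over 73531 bp. PRAS40, a TORC1 inhibitor that Akt phosphorylates, had 7 over 16126 bp, the strongest in an intron 3525 bp from its nearest start (signal 484). REPTOR had 6 and Myc 5. Their strongest signals were 587, 484, 1347 and 743 in the order given. These genes were picked for their number of summits, and each is longer than 15 kb. Over all protein-coding genes of 15 kb or more, the mean number of summits was 2.22 and the median 1.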
